A study of Mus musculus with 4 samples.

Results

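The genes examined were the Hedgehog receptors, their co-receptors and inhibitors, and the Gli transcription factors: Ptch1, Smo, Hhip, Boc, Cdon, Sufu, Gli1, Gli2 and Gli3. They were chosen by gene symbol and make up 9 of the 21578 genes in the deposited tables. RNA was sequenced from brain endothelial cells that had been purified by flow cytometry from C57BL/6 mice at postnatal day 0. The 2 Pd1fl/fl libraries came from mice whose Pd1 gene, which encodes the inhibitory receptor PD-1, is flanked by loxP sites and was left intact. The 2 Pd1cKO-Tie2 libraries came from mice with the same floxed gene and a Tie2-Cre transgene, which removes Pd1 where the Tie2 promoter has been active. That promoter drives Cre in endothelial cells and also in blood cells and part of the myeloid lineage. How many animals went into a library is not stated, so every p-value below measures only the spread between these samples. In Pd1fl/fl that spread may be technical. The 2 Pd1cKO-Tie2 libraries differed in sex makeup, as given below, so their spread is not technical alone.

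Hedgehog ligands bind Patched receptors. Without ligand, Ptch1 holds back the membrane protein Smoothened (Smo), and Sufu keeps the Gli proteins out of the nucleus. With ligand, Smo gathers in the primary cilium and the Gli factors switch on targets that include Gli1, Ptch1 and Hhip themselves, so these genes are widely used as readouts of the pathway. In the brain, neurons and glia are sources and receivers of Hedgehog signals, and the vessel wall also responds to them. The question for these genes arose because the study follows a line from PD-1 through MEK and ERK kinases to Gli1 and the secreted BMP antagonist Grem1.

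Gli1 was also the member the study measured by RT-qPCR, where it reported increased Gli1 mRNA in Pd1cKO-Tie2 endothelial cells. The primers of that assay are shown because they mark which stretch of the transcript the assay reads. On GRCm38 the forward primer lies in exon 4 of the 13 exons of Gli1 (chr10:127338118-127338139, minus strand) and the reverse primer in exon 5 (chr10:127337533-127337555, plus strand). Both are written 5′ to 3′, and together they span 130 bases of the 4057-base transcript.
Gli1 forward primer: ccaagccaactttatgtcaggg
Gli1 reverse primer: agcccgcttctttgttaatttga

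Promoter windows, from 250 bases before to 50 bases after a start site, were available from RefSeq (GRCm38.p6) for 7 of the 9 members. The exceptions were Gli1 and Boc. The Gli consensus GACCACCCA, searched on both strands, was found in 0 of these 7 windows and in 0.253% of the 32851 windows of all genes. Its core, the consensus without its first and last letters, was found in 1 of the 7, that of Gli2, and in 4.61% of all windows. The Gli2 window is shown with the core in capitals (it is read on the other strand), 205 bases before the start site, and the Ptch1 window is shown as that of a pathway readout without a match. A match describes letters only, and the lack of one says nothing about binding. These windows were rich in G and C: 6 of 7 lay above the median of all windows (52.7%), with 67.3% in Gli2 and 76.3% in Ptch1, and Cdon, at 44.7%, was the exception. The Cdon window (chr9:35451826-35452125, plus strand) lies well inside the gene, which starts at chr9:35421128. The Ptch1 window also lies inside its gene, so neither window covers the first start of its gene.
Gli2 (chr1:119053570-119053869, minus strand): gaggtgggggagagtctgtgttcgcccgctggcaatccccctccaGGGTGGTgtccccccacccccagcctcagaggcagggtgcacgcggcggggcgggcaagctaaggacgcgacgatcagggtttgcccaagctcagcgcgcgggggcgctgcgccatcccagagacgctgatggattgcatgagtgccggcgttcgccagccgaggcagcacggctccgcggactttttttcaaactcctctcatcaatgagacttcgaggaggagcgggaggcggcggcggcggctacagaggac
Ptch1 (chr13:63565686-63565985, minus strand): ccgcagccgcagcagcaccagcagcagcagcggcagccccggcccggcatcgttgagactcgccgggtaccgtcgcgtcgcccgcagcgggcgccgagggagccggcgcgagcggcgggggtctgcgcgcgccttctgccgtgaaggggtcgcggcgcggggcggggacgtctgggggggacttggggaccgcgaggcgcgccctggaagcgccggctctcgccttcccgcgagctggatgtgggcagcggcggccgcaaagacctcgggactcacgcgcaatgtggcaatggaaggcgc

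The 4 libraries held between 13715837 and 24147311 counts, the deepest being Pd1cKO-Tie2 replicate 1. Pdcd1, the gene for PD-1, was counted 32 times in one control library, Pd1fl/fl replicate 1, and never elsewhere, so at this depth it could not check the genotype of each library. All 10 endothelial markers were counted in every library, and their summed level, as counts scaled to library size with TMM factors (CPM), was 10247 and 9306 in Pd1fl/fl against 12182 and 12991 in Pd1cKO-Tie2. Markers of other cells were present too: pericyte markers summed to between 3614 and 5606 CPM and microglial markers to between 749 and 2426 CPM. Xist was at 0 in both Pd1fl/fl libraries and at 281 and 27.7 CPM in the Pd1cKO-Tie2 libraries. Summed over 4 Y-linked genes, levels were 471 and 550 CPM in Pd1fl/fl and 87.1 and 446 CPM in Pd1cKO-Tie2. The sex makeup of the libraries moved with genotype and cannot be told apart from it. It also differed between the 2 Pd1cKO-Tie2 libraries, of which replicate 1 had more Xist and less Y-linked RNA. In RNA from many cells, fewer cells of a type and less RNA per cell cannot be told apart either.

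No member passed the test. All 9 passed the filter on low counts and were tested among 15909 genes. The study's criterion, a fold change of 2 or more with p not above 0.05, was reached by 0 of 9, against 4.02% of all tested genes (1.41% higher and 2.61% lower in Pd1cKO-Tie2). After Benjamini-Hochberg adjustment of edgeR's quasi-likelihood p-values, 0 genes of the whole table had an adjusted p under 0.05, while 1016 had an unadjusted p not above 0.05. The corresponding count was 116 with DESeq2 on the same genes, 82 with edgeR's likelihood ratio test and 0 with limma-voom, and none of these genes was a member. The adjusted p of every member was 1.0, and the adjusted p-values below are from the same edgeR fit. Of the members, 3 had a fitted fold change above 0 on the log2 scale and 6 below it, with a median of -0.32, beside a median of -0.004 over all tested genes. An exact permutation of 2 libraries against 2 could not give a two-sided p under 0.333, so levels are given library by library.

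**Figure D1:**
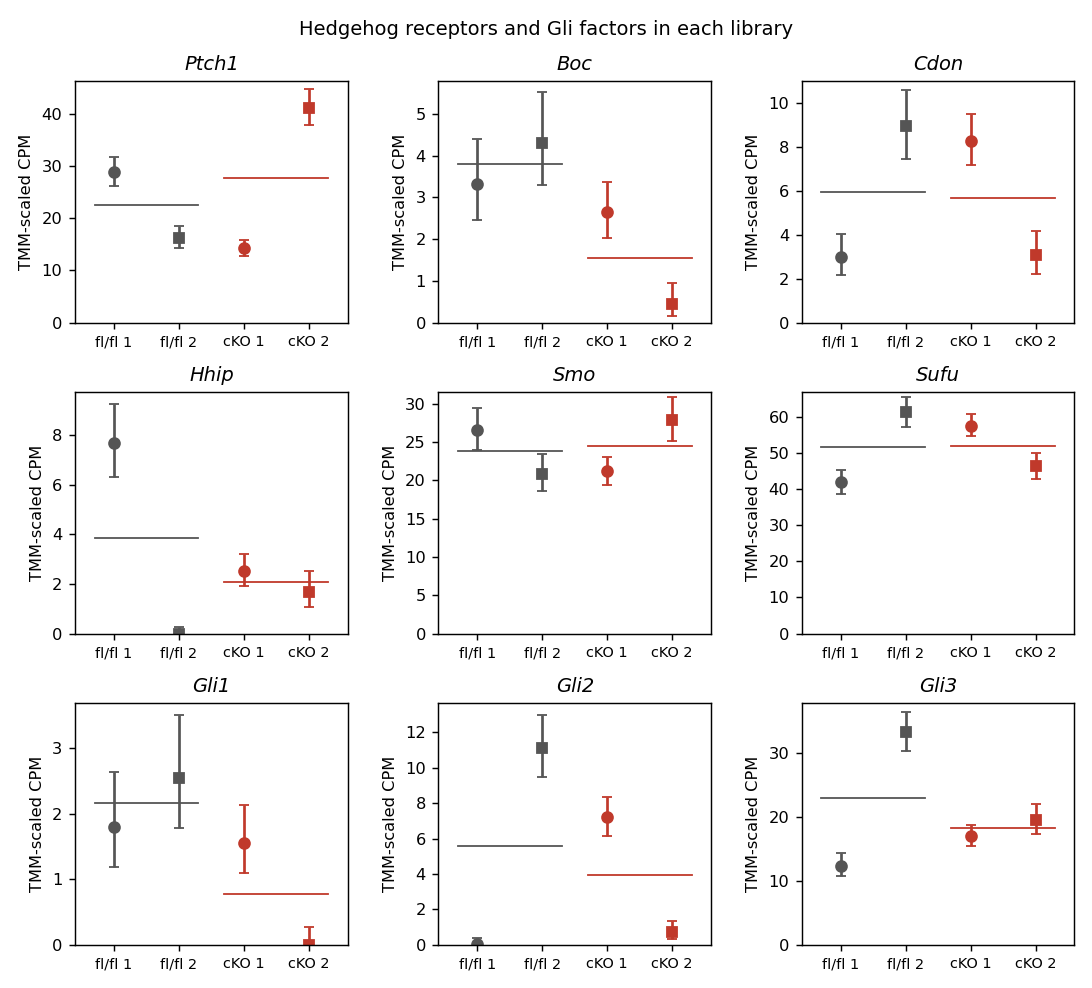
TMM-scaled CPM (y axis, from 0 in each panel) of the 9 members in Pd1fl/fl replicates 1 and 2 (grey) and Pd1cKO-Tie2 replicates 1 and 2 (red); bars are exact Poisson 95% intervals, which cover counting error only, and horizontal lines are genotype means. The counting intervals of the libraries of one genotype lie apart in both genotypes for Gli2, Cdon, Ptch1, Smo and Sufu, in Pd1fl/fl alone for Hhip and Gli3, and in Pd1cKO-Tie2 alone for Gli1 and Boc. The levels of Smo and Sufu differ less than 2-fold among the 4 libraries.

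Among the receptors, Ptch1 (chr13:63508328-63573598) is the receptor that binds ligand and restrains Smo. It was counted 417 and 231 times in the Pd1fl/fl libraries and 342 and 562 times in the Pd1cKO-Tie2 libraries. These are 28.9 and 16.3 CPM against 14.3 and 41.2 CPM. The highest and the lowest of the 4 values were both from Pd1cKO-Tie2, and the groups overlapped. The means were 22.6 ± 8.95 and 27.7 ± 19.0 CPM (SD, n = 2 each). The log2 fold change was 0.29 (SE 0.59, 95% interval -1.16 to 1.74, adjusted p = 1.0), and without Pd1cKO-Tie2 replicate 2 it turned to -0.65. On the linear scale the interval spans 0.448 to 3.34 times the control level.

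Smo (chr6:29735503-29761365), the signal transducer, was among the steadiest members. Its counts were 384 and 297 in Pd1fl/fl against 506 and 381 in Pd1cKO-Tie2, or 26.6 and 20.9 against 21.2 and 27.9 CPM. Each genotype held one library between 20.9 and 21.2 CPM and one between 26.6 and 27.9 CPM. Its fitted log2 fold change was 0.04 (SE 0.34, adjusted p = 1.0), and its 95% interval of -0.80 to 0.88 leaves out a 2-fold change in either direction.

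The co-receptors Boc (chr16:44485049-44558897) and Cdon (chr9:35421128-35507652) are related membrane proteins of the immunoglobulin superfamily that bind ligand together with Ptch1. Boc was counted 48 and 61 times in Pd1fl/fl and 63 and 6 times in Pd1cKO-Tie2, which is 3.33 and 4.30 against 2.64 and 0.439 CPM. Both Pd1cKO-Tie2 libraries were below both Pd1fl/fl libraries, and most of the gap came from replicate 2. Boc had a log2 fold change of -1.30 (SE 1.24, 95% interval -4.37 to 1.78, adjusted p = 1.0), and it was -0.53 without Pd1cKO-Tie2 replicate 2.

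Cdon was counted 43 and 127 times in Pd1fl/fl and 198 and 42 times in Pd1cKO-Tie2, or 2.98 and 8.95 against 8.29 and 3.08 CPM. Each genotype therefore had a high and a low library, at nearly the same pair of levels. The means were 5.96 ± 4.22 and 5.68 ± 3.68 CPM (SD, n = 2 each), and the log2 fold change was -0.07 (SE 0.89, 95% interval -2.27 to 2.14, adjusted p = 1.0).

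Hhip (chr8:79965851-80058006) encodes a membrane protein that captures ligand and so dampens the signal. It was counted 111 times in Pd1fl/fl replicate 1 and 0 times in replicate 2, beside 60 and 23 times in the Pd1cKO-Tie2 libraries. In CPM these were 7.70, 0, 2.51 and 1.68. A count of 0 allows up to 3 counts, or 0.211 CPM in that library. Both the highest and the lowest library were controls, with the Pd1cKO-Tie2 libraries between them. For Hhip, the log2 fold change was -0.87 (SE 2.05, 95% interval -5.94 to 4.20, adjusted p = 1.0). Leaving out Pd1fl/fl replicate 1 turned it to 8.18, a fitted value set against a library at 0 that depends on the prior count and bounds nothing.

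Sufu (chr19:46396896-46488804), which binds Gli proteins and restrains them, had the highest level per kilobase of exon of the 9. It was counted 603 and 869 times in Pd1fl/fl and 1373 and 632 times in Pd1cKO-Tie2, or 41.8 and 61.2 against 57.5 and 46.3 CPM. The Pd1cKO-Tie2 values lay between the Pd1fl/fl values. Sufu had a log2 fold change of 0.01 (SE 0.29, adjusted p = 1.0) with a 95% interval of -0.72 to 0.74, the narrowest of the members.

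Of the Gli factors, Gli1 (chr10:127329882-127341974) is the activator whose own transcription is the usual readout of the pathway. It was counted 26 and 36 times in Pd1fl/fl and 37 and 0 times in Pd1cKO-Tie2. Scaled for depth, this was 1.80 and 2.54 CPM in Pd1fl/fl against 1.55 and 0 CPM in Pd1cKO-Tie2, where 3 counts would be 0.22 CPM. Both Pd1cKO-Tie2 libraries lay below both Pd1fl/fl libraries, but replicate 1 differed little from the controls: its counting interval of 1.09 to 2.13 CPM overlapped that of Pd1fl/fl replicate 1, 1.18 to 2.64 CPM. The means were 2.17 ± 0.518 and 0.774 ± 1.09 CPM (SD, n = 2 each).

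The fitted Gli1 log2 fold change was -1.46 (SE 2.03, 95% interval -6.49 to 3.56, adjusted p = 1.0), and it was -0.48 without Pd1cKO-Tie2 replicate 2. On the linear scale the interval ran from 0.0112 to 11.8 times the control level, so these libraries show neither a fall nor a rise of Gli1 and leave room for a large change in either direction. The exons of Gli1 share 327 bases with genes on the other strand, Arhgap9 and Gm47200, and whether reads were counted by strand is not stated. Arhgap9, a gene of blood cells, was counted 563, 281, 179 and 232 times, more than Gli1 in every library. The RT-qPCR primers shown above lie outside that overlap.

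Gli2 (chr1:118834132-119053619), the main activator of the first response to ligand, was counted once in Pd1fl/fl replicate 1 and 158 times in replicate 2. In Pd1cKO-Tie2 it was counted 172 and 10 times. The CPM values were 0.0694 and 11.1 in Pd1fl/fl against 7.20 and 0.732 in Pd1cKO-Tie2. Each genotype thus had one library with clear expression and one with almost none. The counting intervals of the low control library (0.00176 to 0.386 CPM) and of the high one (9.46 to 13.0 CPM) were far apart. For Gli2, the log2 fold change was -0.49 (SE 1.91, 95% interval -5.23 to 4.25, adjusted p = 1.0). Its direction rested on single libraries: it was 5.71 without Pd1fl/fl replicate 2, where the remaining control holds 1 count, and 0.37 without Pd1cKO-Tie2 replicate 2.

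Gli3 (chr13:15463235-15730026), which in its shortened form is the chief repressor of Hedgehog targets, was at a higher level per kilobase of exon than Gli1 and Gli2 in every library. Its counts were 179 and 473 in Pd1fl/fl against 406 and 267 in Pd1cKO-Tie2, or 12.4 and 33.3 against 17.0 and 19.6 CPM. The Pd1cKO-Tie2 libraries were close to each other and lay between the controls. Gli3 had a log2 fold change of -0.32 (SE 0.53, 95% interval -1.63 to 0.98, adjusted p = 1.0), and it was 0.56 without Pd1fl/fl replicate 2.

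**Figure D2:**
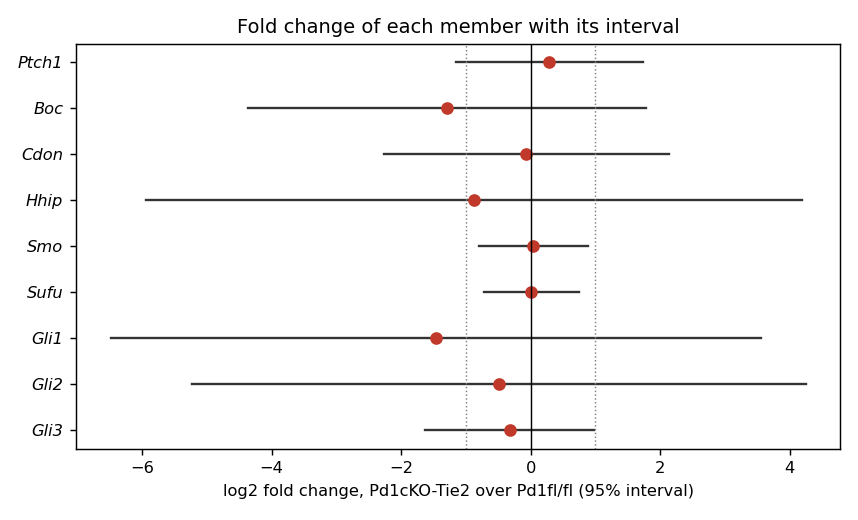
Log2 fold change of each member, Pd1cKO-Tie2 over Pd1fl/fl (x axis; points, edgeR quasi-likelihood fit), with 95% intervals as lines and a 2-fold change in either direction as dotted lines. Every interval crosses 0, and those of Smo and Sufu stay inside the dotted lines.

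Several members varied widely between libraries of the same genotype. With a prior count of 2 on the log2 CPM scale, 4 of 9 members differed at least 2-fold between the Pd1fl/fl libraries (Hhip by 6.02, Gli2 by 5.89, Cdon by 1.55 and Gli3 by 1.42 log2 units), beside 26.4% of all tested genes. Between the Pd1cKO-Tie2 libraries it was 5 of 9 (Gli1 by 3.79, Gli2 by 3.10, Boc by 2.30, Ptch1 by 1.52 and Cdon by 1.39), beside 26.0% of all genes. Between the genotype means on that scale it was 3 of 9, beside 19.3%. Only for Gli1 and Boc did the genotypes not overlap, 2 of 9 against 35.8% of all tested genes, and both were lower in Pd1cKO-Tie2, which 18.1% of tested genes were without overlap.

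The members did not follow one order of libraries. Gli2, Cdon and Sufu were highest in Pd1fl/fl replicate 2 and then in Pd1cKO-Tie2 replicate 1. Ptch1 and Smo were highest in Pd1cKO-Tie2 replicate 2 and then in Pd1fl/fl replicate 1. Gli1, Ptch1 and Hhip, the usual readouts of Gli activity, were highest in 3 different libraries: Gli1 in Pd1fl/fl replicate 2, Ptch1 in Pd1cKO-Tie2 replicate 2 and Hhip in Pd1fl/fl replicate 1.

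**Figure D3:**
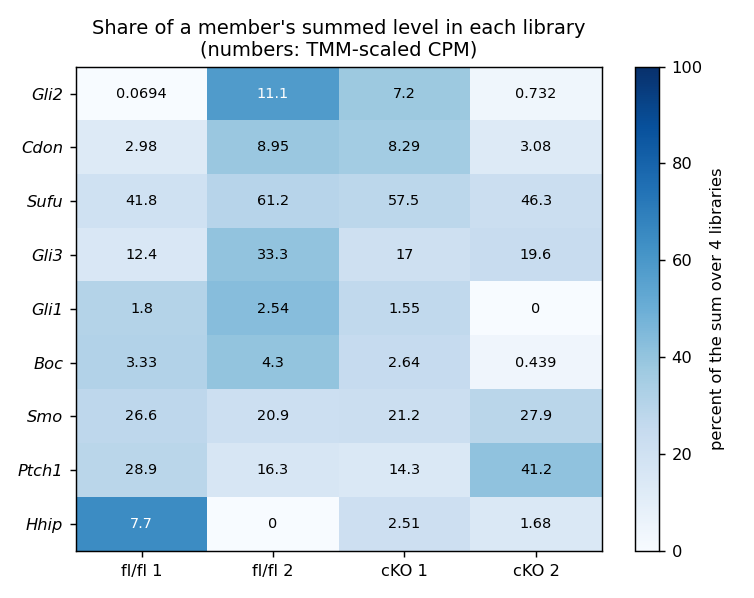
Each row is a member and each column a library; the colour is the percent of the member's summed TMM-scaled CPM that the library holds, and the numbers are the CPM values. The darkest cells are Hhip in Pd1fl/fl replicate 1 and Gli2 in Pd1fl/fl replicate 2. Cdon, Sufu, Gli3, Gli1 and Boc are also darkest in Pd1fl/fl replicate 2, and Smo and Ptch1 in Pd1cKO-Tie2 replicate 2, with less contrast.

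Levels of different genes were compared per kilobase of exon (RPKM, from the scaled CPM). As a mean over the 4 libraries the order was Sufu at 6.72 ± 1.19, Smo at 4.30 ± 0.646, Gli3 at 2.15 ± 0.938, Ptch1 at 1.77 ± 0.880, Cdon at 0.755 ± 0.420, Gli2 at 0.696 ± 0.774, Boc at 0.601 ± 0.368, Hhip at 0.328 ± 0.366 and Gli1 at 0.295 ± 0.214 RPKM (SD, n = 4). Sufu, from 5.44 to 7.96 RPKM, lay above Smo, from 3.72 to 4.96 RPKM, in every library. Smo in turn lay above the whole range of Gli3, 1.29 to 3.47 RPKM. The ranges of Gli3 and Ptch1 overlapped, as did those of Ptch1 and Cdon, and the ranges of the 5 lowest members overlapped one another. Within each library, Boc and Cdon were above Gli1. Within each library, Sufu and Gli3 were above Gli1 and Gli2 on this scale.

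The rest of the pathway was read from lists by role. Of 46 further genes from ligand to Gli kinases, 44 were listed and 41 tested, and 2 of the 41, or 4.88%, reached the criterion, close to the 4.02% of all tested genes. Shh and Gsk3a were not analysed here. The median log2 fold change of the tested genes was 0.00, and in 15 of the 41 the genotypes did not overlap, near the 35.8% of all tested genes.

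Ligands were scarce. Ihh was counted 27 times in Pd1cKO-Tie2 replicate 1 and 0 times elsewhere, too little to be tested. Dhh, the ligand known from the vessel wall and nerve sheath, was counted 4 and 21 times in Pd1fl/fl and 13 and 28 times in Pd1cKO-Tie2 (log2 fold change 0.55, SE 1.61, adjusted p = 1.0). Of the genes that finish and release ligand, Hhat, which attaches palmitate, had 11.5 and 11.3 CPM in Pd1fl/fl and 5.65 and 2.34 CPM in Pd1cKO-Tie2. Those genotypes did not overlap, and the log2 fold change of Hhat was -1.51 (SE 0.67, adjusted p = 0.837). Disp1, the exporter of ligand, had 15.0 and 15.8 against 13.8 and 13.0 CPM. Scube1, Scube2 and Scube3, secreted proteins that help ligand leave the cell, had log2 fold changes of 0.34, 2.70 and -1.51 (adjusted p from 0.976 to 1.0). In all, 0 of 6 tested genes of this list reached the criterion, with a median log2 fold change of 0.07.

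Among further receptors and their regulators, 0 of 6 tested genes reached the criterion, with a median log2 fold change of -0.12. The co-receptor Gas1 was counted between 5 and 9 times in each library and was not tested. Lrp2, an endocytic receptor that takes up ligand, was counted 50 times in Pd1cKO-Tie2 replicate 2 and 0 times in the other 3 libraries. The glypicans Gpc3 and Gpc6, cell surface proteoglycans, had log2 fold changes of -0.26 and -0.41, with overlapping genotypes. Mgrn1 and Mosmo (matched by identifier), which lower Smo at the membrane, had log2 fold changes of -0.16 and -0.01 (SE 0.27 and 0.33).

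In the list of cilium and transduction genes, 2 of 14, or 14.3%, reached the criterion, in opposite directions, beside 4.02% of all tested genes. They are the same 2 genes that were counted among the 41 above. Tulp3, which carries membrane receptors such as Gpr161 into the cilium, was counted 343 and 362 times in Pd1fl/fl and 242 and 132 times in Pd1cKO-Tie2, or 23.8 and 25.5 against 10.1 and 9.67 CPM. Its level fell, with a log2 fold change of -1.32 (SE 0.36, adjusted p = 0.735). Ift172, a subunit of the IFT-B train that builds the cilium, rose from 15.4 and 15.1 CPM to 37.0 and 30.0 CPM, with a log2 fold change of 1.13 (SE 0.32, adjusted p = 0.735). The call of Tulp3 held under all 13 alternatives, and that of Ift172 under 12, since without Pd1cKO-Tie2 replicate 1 its log2 fold change was 0.98. For both genes the libraries of a genotype lay close together, and 0.735 was also the lowest adjusted p among all tested genes. Kif3a, the motor of the same train and one of the 2 genes of the list with the most counts, had a log2 fold change of -0.25 (SE 0.20, adjusted p = 0.983). The median over the list was 0.32.

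Of the kinases and ubiquitin ligases that act on Gli proteins, 0 of 15 reached the criterion, with a median log2 fold change of 0.00. The 2 most counted were Prkar1a, the regulatory subunit of protein kinase A, and Csnk1a1, casein kinase 1 alpha. Prkar1a lay between 1095 and 1261 CPM in all libraries (log2 fold change 0.08, SE 0.12, adjusted p = 1.0). Csnk1a1 was at 741 and 716 CPM in Pd1fl/fl and 892 and 988 CPM in Pd1cKO-Tie2, a log2 fold change of 0.37 (SE 0.12, adjusted p = 0.735) which stays under 2-fold. The ligase Itch, the other gene of this list with an unadjusted p not above 0.05, had 112 and 188 against 78.5 and 81.4 CPM and a log2 fold change of -0.91 (SE 0.28, adjusted p = 0.735); it was named after its values were seen.

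Of 17 genes described as Hedgehog targets in various tissues, 16 were tested and 0 reached the criterion, with a median log2 fold change of -0.03. The cyclins Ccnd2 and Ccnd1, which drive entry into the cell cycle, had the most counts. Ccnd2 lay at 384 and 380 CPM in Pd1fl/fl and 404 and 306 CPM in Pd1cKO-Tie2 (log2 fold change -0.10, SE 0.18, adjusted p = 1.0). Ccnd1 had 227 and 144 against 315 and 268 CPM, a log2 fold change of 0.65 (SE 0.25, adjusted p = 0.753), and many signals other than Hedgehog act on it. Of the 16, 7 were above 0 and 9 below it.

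**Figure D4:**
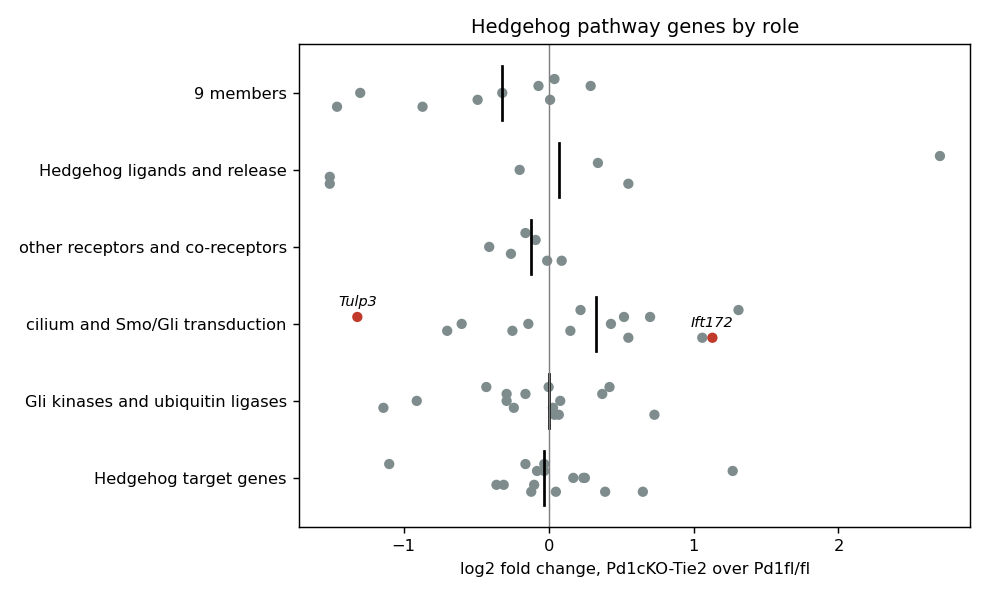
Log2 fold change, Pd1cKO-Tie2 over Pd1fl/fl (x axis), of every tested Hedgehog gene by role (rows); black bars are the medians and red points the 2 genes past the criterion, Tulp3 and Ift172. The points of each list fall on both sides of 0.

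Around Gli1 in the line that the study follows, the transcripts of MEK and ERK kinases showed small differences. Map2k1 and Map2k2, which encode MEK1 and MEK2, had log2 fold changes of -0.01 (SE 0.25) and 0.38 (SE 0.22), and Mapk3, which encodes ERK1, had one of 0.19 (SE 0.29). None passed the criterion, with adjusted p-values from 0.916 for Map2k2 to 1.0 for Map2k1 and Mapk3. These are RNA levels and carry no measure of phosphorylation. Grem1 was counted 0 and 0 times in Pd1fl/fl and 47 and 186 times in Pd1cKO-Tie2. With 3 counts per library as the limit of a 0, the lower Pd1cKO-Tie2 library, at 1.97 CPM, was 9.31-fold above the higher control limit. This ratio leaves out counting error: the Poisson 95% interval was 1.45 to 2.62 CPM in that library and reached at most 0.26 CPM in the controls. Grem1 passed the criterion (adjusted p = 0.735). Over all fits its adjusted p ran from 0.00287, with DESeq2, to 0.928, without Pd1cKO-Tie2 replicate 2. It missed the criterion there and, with all 4 libraries, under limma-voom (log2 fold change 6.88). The library with the most Grem1, Pd1cKO-Tie2 replicate 2, was the one with 0 counts of Gli1. Gli1 had few counts in every library, so this pairing rests on low counts, and a relation between the genes was not tested.

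Markers of other cells also differed between the libraries. Summed neuronal markers (10 of 10 tested) were 1106 and 1452 CPM in Pd1fl/fl and 1224 and 1090 CPM in Pd1cKO-Tie2, the order of libraries that Cdon had except in which of the 2 low libraries came last. Summed radial glia and astrocyte markers were 1013 and 937 against 754 and 686 CPM, lower in both Pd1cKO-Tie2 libraries and lowest in replicate 2. In 8 of these 10 markers the genotypes did not overlap, against 35.8% of all tested genes, and 6 of the 8 were lower in Pd1cKO-Tie2. Fabp7 and Hes5 were lower (log2 fold changes of -1.01 and -1.10, SE 0.19 and 0.35, adjusted p = 0.735 for each). The other 2 of the 8 were higher. Nes had 198 and 122 against 217 and 285 CPM, short of the criterion. Hopx was counted 0 and 1 times in the controls and 358 and 43 times in Pd1cKO-Tie2 (adjusted p = 0.735). Oligodendrocyte precursor markers summed to 482 and 620 against 442 and 296 CPM, and most of each sum was Ptprz1 (315 and 503 against 243 and 192 CPM). Of the tested markers of this list, Ptprz1 and Cspg5 were lowest in Pd1cKO-Tie2 replicate 2. Pdgfra, Olig1 and Sox10 were lowest in Pd1fl/fl replicate 2, Gpr17 in Pd1fl/fl replicate 1 and Olig2 in Pd1cKO-Tie2 replicate 1. Summed pericyte markers were highest in Pd1fl/fl replicate 1, at 5606 CPM, as Hhip was, and between 3614 and 3717 CPM in the other 3 libraries. Most of each sum was Rgs5 (4916 and 3220 against 3259 and 3279 CPM). Of the tested markers of this list, only Cspg4 was not highest in Pd1fl/fl replicate 1. Microglial markers were 1936 and 2426 against 749 and 1675 CPM, fibroblast markers 147 and 64.5 against 87.6 and 98.4 CPM, erythroid markers 644 and 548 against 573 and 1063 CPM, and neutrophil markers 914 and 24.6 against 55.5 and 1.32 CPM, with most of the sum in Pd1fl/fl replicate 1. Ngp and S100a8 passed the criterion as lower, but their genotypes overlapped: Ngp was counted 5950 and 0 times against 28 and 0 times, and S100a8 531 and 7 times against 5 and 13 times. Of the 8 neutrophil markers, the number at 0 was 0 and 4 in Pd1fl/fl against 3 and 5 in Pd1cKO-Tie2. Among fibroblast markers Postn was lower (log2 fold change -2.25, SE 0.51, adjusted p = 0.735). The number of these markers at 0, of 8, was 1 in Pd1fl/fl replicate 1. It was 3 in each of the other libraries, not always the same markers. Genotypes also did not overlap in 10 of 10 endothelial markers, which were higher in Pd1cKO-Tie2, and in 7 of 9 microglial markers, which were lower there. The part of any of these cells in the member levels was not tested.

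**Figure D5:**
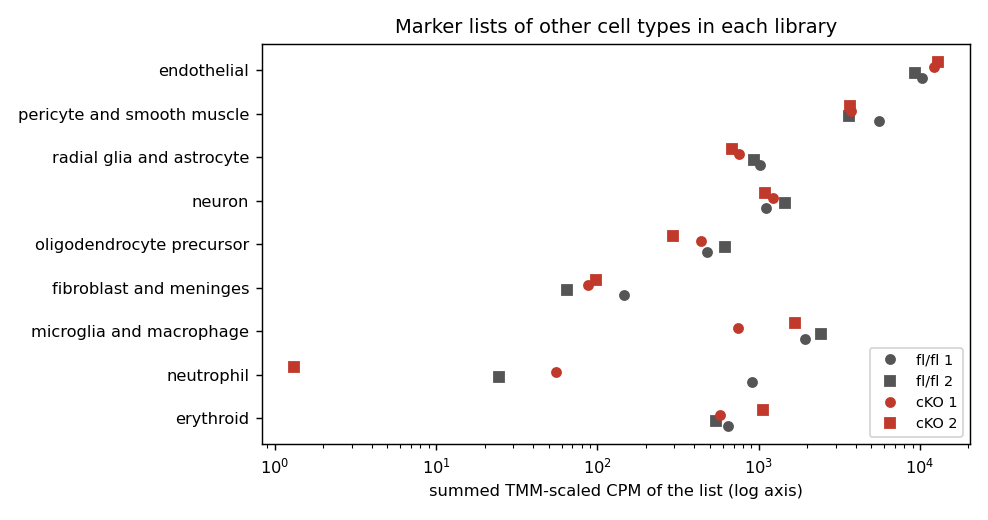
Summed TMM-scaled CPM of each marker list (x axis, log scale) in Pd1fl/fl replicates 1 and 2 (grey) and Pd1cKO-Tie2 replicates 1 and 2 (red). Endothelial sums are the highest and lie above in Pd1cKO-Tie2, radial glia sums lie below there, and neutrophil sums run from 1.32 to 914 CPM. Sums of different lists do not compare cell content. Cldn5 is the largest part of each endothelial sum (4774 to 7008 CPM), and Rgs5 that of each pericyte sum.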

How the data were processed

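RNA-seq libraries of brain endothelial cells at postnatal day 0 were compared between Pd1fl/fl and Pd1cKO-Tie2 mice (2 libraries each, with the numbers of the table columns). Since none of the labels has the number of one Pd1cKO-Tie2 column (replicate 2), that library was used by genotype alone. Total RNA was taken in TRIzol and sequenced on an Illumina HiSeq instrument. The authors deposited 4 tables, each pairing libraries of both genotypes. The deposited counts are raw numbers of reads for each gene. The CPM columns are, by the authors, counts over the library total with 0.5 reads in place of 0, and served only to recover totals. Columns of fold changes, p-values and calls for each pair of libraries were not used.

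The submitters' processing notes name TopHat2 2.0.12, Bowtie2 2.2.3, HTSeq 0.6.0 and mm9. However, 90.0% of the gene positions in the tables equal GENCODE M21 on GRCm38, so coordinates are given on GRCm38, and which annotation was counted remains unsure. Use of strand is not given in the sources used here. The tables were joined to 21578 genes. Broken lines, 10 in all, were skipped. Where a library had no entry for a gene, 0 was used, although up to 4 counts are possible, and unlisted reads were between 0.00495% and 0.0107% of a total. A count of 0 allows 3 counts, which is 0.126 to 0.22 CPM. Intervals on counts are exact Poisson 95% intervals and cover counting error only.

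The test was edgeR's quasi-likelihood F test (edgeR 4.0.16, R 4.3.3; filterByExpr by genotype, TMM scaling, no covariate) with Benjamini-Hochberg adjustment over 15909 genes. Dispersion corresponded to a common biological coefficient of variation of 0.61. The criterion of 2-fold and p 0.05 is that of the study's methods, which name no tool. Standard errors were derived from each fold change and its F. RPKM is TMM-scaled CPM per kilobase of merged GENCODE M21 exons. Promoter windows are RefSeq's. The fit was run on simulated counts with 200 genes changed 8-fold. That run does not show whether smaller changes in members with low counts could be found. Alternatives were DESeq2 1.42.0 on all or on the filtered genes, limma-voom (limma 3.58.1), edgeR's likelihood ratio test, other filters and scalings, and leaving out each library.

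The members and lists were chosen with earlier results of these data known. Named were all members, the genes of each Hedgehog list past the criterion, its 2 most counted genes, and all ligands and receptors. Grem1, the MEK and ERK genes, and the 5 genes most like Gli1 in pattern were also named. Gene models such as Gm and Rik symbols were left out of these 5. A few genes that this rule names are not reported here, but they remain in the counts and medians of their lists. Marker genes past the criterion, and Itch, were named after their values were seen. Samples were too few for any correlation.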

Additional observations from a re-analysis of the deposited data

How the results depend on the processing

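Under all 13 alternatives 0 members reached the criterion, and the lowest p of a member was 0.0567 (Gli2 without Pd1fl/fl replicate 2). The count of genes past the criterion was 640 and ran from 480 to 936 with all libraries and from 689 to 877 without 1 library. With all libraries, limma-voom turned the log2 fold changes of Gli2 (1.72), Hhip (2.07), Cdon (0.15), Ptch1 (-0.0045) and Smo (-0.002), and scaling by library size alone turned Smo (-0.018) and Sufu (-0.05). The cause was not tested. Grem1 missed the criterion with limma-voom (6.88). The median of the other pathway genes moved to -0.05 with at least 10 counts in every library, a filter that leaves out Gli1, Gli2, Hhip and Boc and takes the members' median from -0.32 to 0.0067, and to -0.06 with library size alone.

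Leaving out 1 library turned the direction of 7 of 9 members. The log2 fold changes ran from -7.94 to -0.48 for Gli1, -3.08 to -0.53 for Boc, -2.91 to 5.71 for Gli2, -0.86 to 0.56 for Gli3, -0.65 to 0.87 for Ptch1, -0.16 to 0.24 for Smo, -1.87 to 8.18 for Hhip, -0.23 to 0.31 for Sufu and -0.94 to 0.93 for Cdon. Without Pd1fl/fl replicate 1, Sufu was at -0.23. Without Pd1fl/fl replicate 2, Ptch1 was at -0.06 and Smo at -0.12. Without Pd1cKO-Tie2 replicate 1, Sufu was at -0.14. Without Pd1cKO-Tie2 replicate 2, Gli2 was at 0.37, Smo at -0.16 and Cdon at 0.48. The genotype left with 1 library is assumed to vary like the other. Grem1 ran from 8.11, without Pd1cKO-Tie2 replicate 2 and then short of the criterion, to 10.59. Medians ran from -0.94 to -0.06 for the members, -0.07 to 0.06 for the other pathway genes and -0.15 to 0.09 for the targets. Values set against a library at 0 depend on the prior count.

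No paired analysis was possible because the genotypes share a single replicate number in the labels.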

Other observations

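Several genes had nearly the pattern of Gli1 over the 4 libraries. The measure was the root mean square difference of log2 CPM, each gene centred on its own mean. With gene models such as Gm and Rik symbols left out, the 5 closest were Car10 (0.105), Snord72 (0.114), Wdr78 (0.126), Ntsr2 (0.128) and Dnhd1 (0.163). Car10 was counted 28 and 35 times in Pd1fl/fl and 44 and 0 times in Pd1cKO-Tie2, and Ntsr2, a neurotensin receptor, 25 and 35 times against 29 and 0 times. Wdr78, a dynein component of motile cilia, had 8.53 and 14.9 CPM in Pd1fl/fl and 7.99 and 0.439 CPM in Pd1cKO-Tie2. Of the 15908 other tested genes, gene models included, 89 lay within 0.5 of Gli1 on this measure. All of the 5 were at or near 0 in Pd1cKO-Tie2 replicate 2, and with 4 libraries such likeness is a description only.

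Outside the members, other genes with low counts also varied widely between libraries of a genotype. Kif7, the kinesin that scaffolds Gli proteins at the cilium tip, was counted 0 and 52 times in Pd1fl/fl and 57 and 72 times in Pd1cKO-Tie2, and Evc 21 and 0 against 0 and 50 times. Angpt1, a Tie2 ligand made by mural cells, was counted 5 and 100 times in Pd1fl/fl and 320 and 60 times in Pd1cKO-Tie2. These genes were chosen after their values were seen.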
